A study of Mus musculus with 4 samples.

Results

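The 9 genes described here encode sensors of DNA in the cytosol, the signalling proteins that act after them, and nucleases or related enzymes that limit the DNA and nucleotide supply. They are CGAS, IFI16, AIM2, MNDA, TMEM173 (the gene of STING), TBK1, IRF3, TREX1 and SAMHD1. Members were taken by gene name from the deposited count table, and all 9 were found among its 58735 gene rows. Of the 9, 7 had enough reads to be tested, while AIM2 and TREX1 did not. The libraries came from Jurkat T cells, a human T cell leukaemia line, and were compared as 2 labelled wildtype against 2 labelled Matr3 knock out. The targeted gene encodes matrin 3, which binds RNA and belongs to the nuclear matrix, and the labels give CRISPR-Cas9 as the means of the knockout. The cells of both groups were kept in the same medium with no other treatment named. The labels do not say whether the knockout was 1 clone or a pool, nor whether libraries came from separate cultures, so the spread behind the p-values is that between these samples and may be technical. As these are bulk libraries, fewer cells of a type and less RNA per cell cannot be told apart.

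In this pathway, cGAS (the product of CGAS) binds DNA that has reached the cytosol and makes the messenger cGAMP. The messenger binds STING, which recruits the kinase TBK1, and TBK1 phosphorylates IRF3, a transcription factor of interferon beta and other antiviral genes. IFI16, AIM2 and MNDA belong to the PYHIN family, whose members pair a pyrin domain with DNA-binding HIN domains. AIM2 assembles an inflammasome, IFI16 is mostly nuclear and cooperates with STING, and MNDA is known from myeloid cells. TREX1 is an exonuclease that degrades DNA in the cytosol, and SAMHD1 removes the deoxynucleotides needed for reverse transcription and replication. T cell lines are known to carry parts of this pathway at low levels.

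Total counts ranged from 15008554 to 17477643 per library, and mitochondrial genes took 4.92 to 5.31% of the reads in wild-type and 9.33 to 9.49% in the libraries labelled knockout. The MATR3 rows do not check the labels. The 2 rows of that name (chromosome 5, 139293648 to 139331677 and 139273752 to 139331671) overlap over 38024 bases. The first held 19 and 9 reads in wild-type against 42 and 61 in the libraries labelled knockout. The second held 5 and 1 against 2 and 2. All directions therefore refer to the group labelled knockout, whatever its genotype. T cell markers were present in all 4 libraries, none of the 12 being at 0 in either group, with summed levels of 3495 and 3251 CPM in wild-type and 1446 and 1412 CPM in the libraries labelled knockout (CPM, reads scaled to a common library total with TMM factors). Of the 12 T cell markers, 11 were lower and 0 higher. Myeloid markers differed the other way. Their sum over 17 genes was 97.5 and 99.3 CPM in wild-type and 6136 and 6011 CPM in the libraries labelled knockout. All 15 that were tested were higher, ELANE, CSF3R and S100A8 were at 0 in wild-type, and S100A8 was at 0 in the others too. A marker near 0 in wild-type could pass the low-count filter only through the libraries labelled knockout. For such markers the direction was fixed by the filter. Every value below comes from libraries that differ in these markers, and the part of the markers in each result was not tested.

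Among the 7 tested members, CGAS, MNDA, SAMHD1, TBK1 and TMEM173 were higher in the libraries labelled knockout, IFI16 was lower, and IRF3 did not pass the test. The test was edgeR's quasi-likelihood test, with p adjusted by Benjamini-Hochberg over all 15294 genes tested and 0.05 as the threshold. It called 66.0% of all genes tested, 33.7% higher and 32.3% lower, so 6 of 7 members called is read against a wide background. Groups did not overlap in CPM for 6 of 7 members and for 82.0% of all genes tested. CGAS, MNDA and SAMHD1 passed the test with at least a 2-fold change, as did 26.3% of all genes tested. MNDA and CGAS passed the filter on low counts through their reads in the libraries labelled knockout, so that a difference was needed for them to be tested at all.

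**Figure D1:**
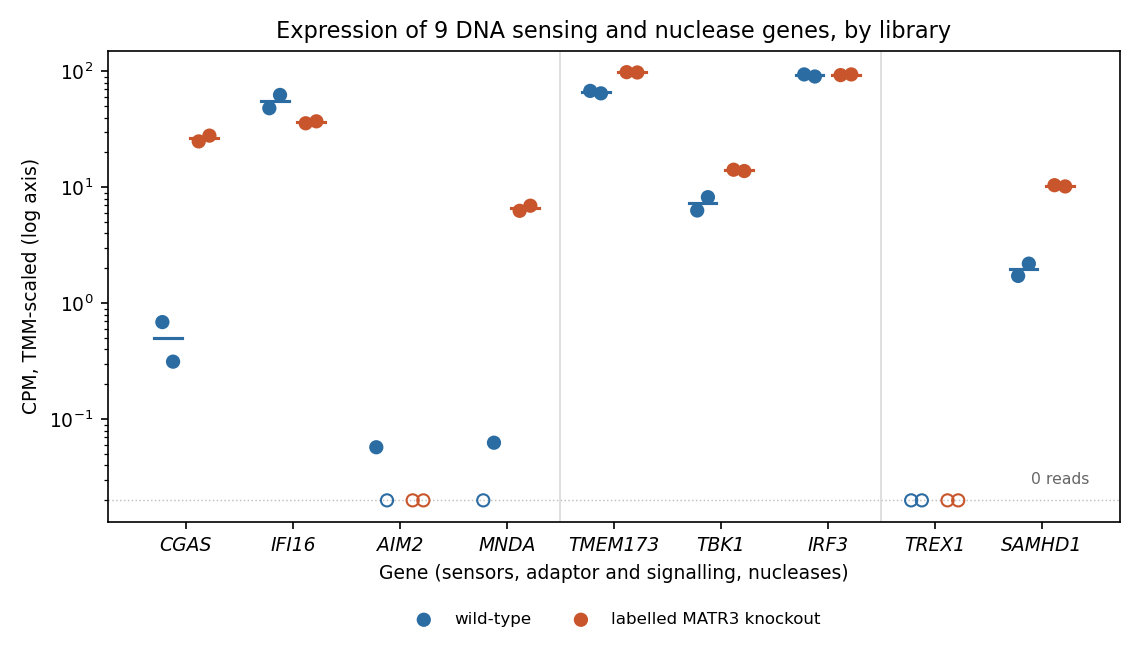
CPM (log axis) of the 9 genes in each of the 4 libraries, with a dash for the group mean where both libraries had reads and open circles for 0 reads. CGAS, MNDA and SAMHD1 stand apart between the groups, IFI16 is the lower one, IRF3 overlaps, and TREX1 has 0 reads in every library.

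CGAS, the sensor that makes cGAMP, was close to absent from wild-type libraries and well represented in those labelled knockout. The gene (ENSG00000164430, chromosome 6, 73413515 to 73452276, the build is not stated in the sources used) had 12 and 5 reads in the wild-type libraries and 365 and 414 in those labelled knockout. Scaled for depth these were 0.689 and 0.314 CPM against 24.9 and 27.9 CPM. Both wild-type libraries were low and the groups lay far apart. Means were 0.501 ± 0.265 and 26.4 ± 2.13 CPM (SD, n = 2 each), and the log2 fold change was 5.67 (SE 0.261, edgeR quasi-likelihood adjusted p = 2.15e-32). From the summed reads the ratio was 51.8, with a 95% exact interval of 32.1 to 89.4 that covers counting error only. Without wild-type replicate 1, which held 12 of the 17 wild-type reads, the log2 fold change was 6.38. The only row overlapping CGAS, DDX43 on the opposite strand, held 4 reads over all libraries.

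The PYHIN genes lie together on chromosome 1, and 2 of the 4 were tested. Of these, IFI16 was lower and MNDA higher, but MNDA, near 0 in wild-type, could be tested only if it was higher. IFI16 (ENSG00000163565, 158999968 to 159055155) had 48.1 and 62.6 CPM in wild-type against 35.7 and 37.1 CPM in the libraries labelled knockout. The wild-type libraries differed more from each other than the other pair did, but both were above it. IFI16 fell by 0.60 on the log2 scale (SE 0.103, edgeR quasi-likelihood adjusted p = 4.34e-07), from 55.4 ± 10.3 to 36.4 ± 0.993 CPM (SD, n = 2 each). MNDA (ENSG00000163563, 158831317 to 158849506), 169 kb away on the same strand, had 0 and 1 reads in the wild-type libraries and 92 and 103 in those labelled knockout. Its levels were 6.28 and 6.94 CPM in the latter, and the groups were separate. MNDA rose by a fitted log2 fold change of 7.45 (SE 0.573, edgeR quasi-likelihood adjusted p = 1.00e-19), which depends on how a count near 0 is handled. From summed reads the ratio was 220, with a 95% exact interval of 39.1 to 8752 for counting error. Leaving out wild-type replicate 2, the library with the single read, gave 9.69, and leaving out replicate 1 gave 6.56.

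AIM2 (ENSG00000163568, 159062484 to 159147096), the inflammasome sensor, had 1 read in wild-type replicate 1 and 0 reads elsewhere. In the libraries labelled knockout, 0 reads allowed a level of up to 0.102 CPM over the group (3 counts, counting error only). Levels at or under that floor give no fold, and AIM2 was not detectable at this depth. PYHIN1, the other family member in the cluster, had 2 and 3 reads against 6 and 3 and was not tested. IFI16 made up 838 of 841 family reads in wild-type replicate 1 and 997 of 1001 in replicate 2. In the libraries labelled knockout it made up 523 of 621 reads (84.2%, 95% exact interval 81.1 to 87.0%, counting error only) and 550 of 656 reads (83.8%, 80.8 to 86.6%). MNDA supplied 92 of 621 (14.8%, 12.1 to 17.9%) and 103 of 656 (15.7%) of the family reads there.

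**Figure D2:**
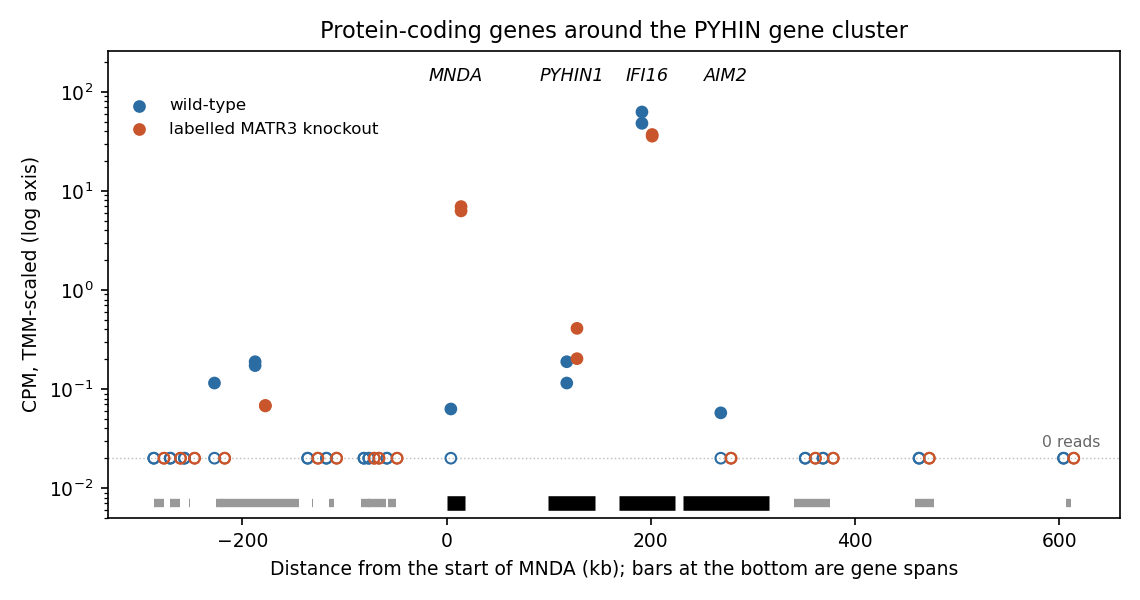
CPM (log axis) in each library for the protein-coding genes within 300 kb of the PYHIN cluster, placed by distance from the start of MNDA, with open circles for 0 reads and black bars for the spans of the 4 family members. MNDA is high in the libraries labelled knockout, IFI16 is lower there, and most surrounding genes had no reads.

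The cluster spans 316 kb and sits among genes with few reads. Of 18 protein-coding rows within 300 kb of it, 12 had 0 reads in all 4 libraries and 2 were tested, MNDA and IFI16 themselves. The nearest tested genes before MNDA were the CD1 antigen-presenting genes CD1E, CD1B and CD1C, and all 3 fell, with CD1C going from 29.2 ± 1.88 to 6.37 ± 1.10 CPM. The nearest tested gene after IFI16, the phosphatase gene DUSP23, rose from 0.410 ± 0.313 to 11.8 ± 0.338 CPM (SD, n = 2 each). It lies 781 kb beyond the start of IFI16. Its log2 fold change of 4.79 was 5.93 without wild-type replicate 1 and 4.20 without replicate 2. DUSP23, like MNDA, passed the low-count filter only through the libraries labelled knockout. The CD1 genes and IFI16, with reads in both groups, fell. In a list of genes of the wider locus, 9 were tested, of which 1 was higher and 7 were lower, with a median log2 fold change of -1.09.

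STING, the receptor of cGAMP, was already abundant in wild-type. TMEM173 (ENSG00000184584, chromosome 5, 139475534 to 139482935) had 67.9 and 64.6 CPM in wild-type and 98.4 and 97.8 CPM in the libraries labelled knockout. Both pairs were tight and did not overlap. The gene rose by 0.57 on the log2 scale (SE 0.0803, edgeR quasi-likelihood adjusted p = 3.16e-09), a ratio of means of 1.48. TMEM173 lies 144 kb beyond the end of MATR3. Among its 6 nearest tested protein-coding genes, 1 was higher, 2 were lower and 3 did not pass the test. The closest on either side were SMIM33, which fell from 2.41 to 0.474 CPM, and the ubiquitin-conjugating enzyme gene UBE2D2, at 116.8 and 109.3 CPM with an adjusted p of 0.263 (edgeR).

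TBK1, the kinase that STING recruits, was lower in level than its partners and higher in the libraries labelled knockout. It (ENSG00000183735, chromosome 12, 64451880 to 64502108) had 6.31 and 8.23 CPM in wild-type against 14.2 and 13.8 CPM. The wild-type libraries were below the others, with no overlap. The log2 fold change was 0.95 (SE 0.185, edgeR quasi-likelihood adjusted p = 6.07e-06), from 110 and 131 reads against 208 and 205. IRF3, the factor that TBK1 activates (ENSG00000126456, chromosome 19, 49659569 to 49665875), stood at 94.1 and 90.3 CPM in wild-type and at 92.8 and 94.1 CPM in the libraries labelled knockout. The groups overlapped. Its log2 fold change was 0.02 (SE 0.0779, edgeR quasi-likelihood adjusted p = 0.840), with a 95% interval of -0.14 to 0.17, and its sign turned with 2 of the settings tried. IRF3 shares 734 bases with BCL2L12 on the opposite strand, which also did not pass the test (102.5 and 106.6 CPM), and without a stated strand setting reads of the shared part cannot be told apart.

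**Figure D3:**
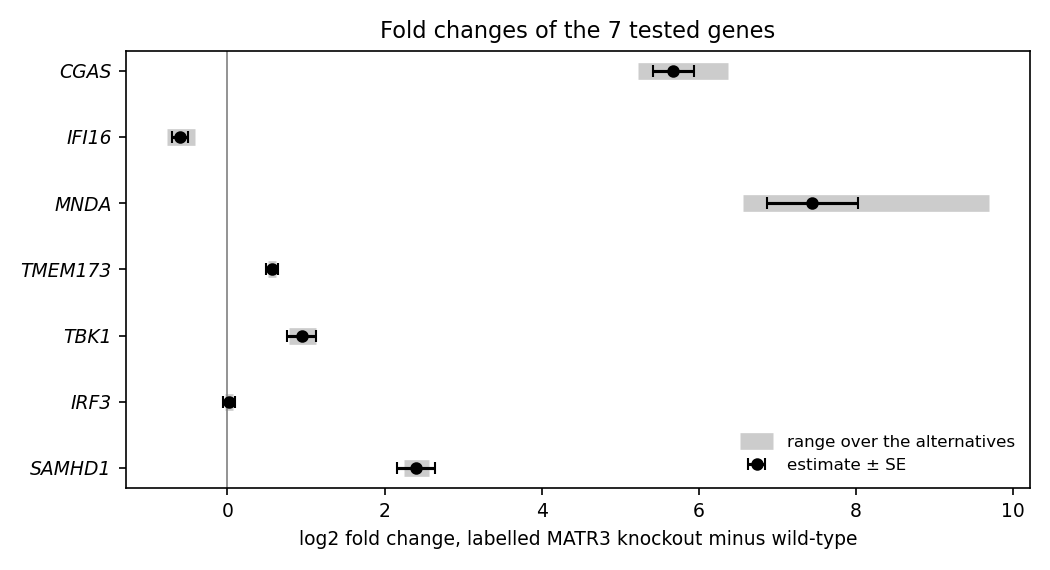
log2 fold change of the 7 tested genes (libraries labelled knockout minus wild-type) with its SE, and as a grey bar the range over the alternative settings. The bars of CGAS, MNDA, SAMHD1, TBK1 and TMEM173 lie above 0, that of IFI16 lies below, and that of IRF3 includes 0.

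SAMHD1, which hydrolyses deoxynucleotide triphosphates, was low in wild-type and rose. The gene (ENSG00000101347, chromosome 20, 36889773 to 36951901) had 30 and 35 reads in the wild-type libraries and 153 and 151 in those labelled knockout. These were 1.72 and 2.20 CPM against 10.4 and 10.2 CPM, with no overlap. The log2 fold change was 2.40 (SE 0.241, edgeR quasi-likelihood adjusted p = 2.12e-14), and the ratio of summed reads was 5.29 (95% exact interval 4.03 to 7.02, counting error only). SAMHD1 overlaps TLDC2 on the opposite strand, but TLDC2 held 4 reads over all libraries.

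TREX1 could not be measured in this table. The row (ENSG00000213689, chromosome 3, 48465811 to 48467645) had 0 reads in all 4 libraries. Its whole span, 1835 bases, lies within that of ATRIP (48446710 to 48467645) on the same strand, and both end at the same base. ATRIP, which encodes the partner of the checkpoint kinase ATR, had 36.6 and 38.0 CPM (adjusted p = 0.681, edgeR). Reads in a shared span may have been counted for ATRIP or for neither gene, so the 0 reads set no limit on TREX1.

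Between genes, levels were compared per length, as TPM computed with the gene lengths of the table. In wild-type the order was IRF3 (77.0 TPM), TMEM173 (54.5 TPM), IFI16 (33.2 TPM), TBK1 (4.85 TPM), SAMHD1 (0.553 TPM) and CGAS (0.378 TPM), with MNDA and AIM2 at 1 read each and TREX1 at 0. SAMHD1 and CGAS overlapped in their libraries, as did MNDA, AIM2 and TREX1, and the other neighbours in the order did not. In the libraries labelled knockout the order was TMEM173 (70.4 TPM), IRF3 (68.0 TPM), IFI16 (19.0 TPM), CGAS (17.6 TPM), MNDA (8.87 TPM), TBK1 (8.12 TPM) and SAMHD1 (2.53 TPM). There IFI16 and CGAS overlapped, as did AIM2 and TREX1, both at 0. STING transcripts exceeded CGAS transcripts per length 106-fold and 222-fold in the wild-type libraries, and 4.27-fold and 3.78-fold in the libraries labelled knockout. The wild-type ratios rest on 12 and 5 CGAS reads.

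The tested genes around the members moved unevenly. Of the 6 nearest tested protein-coding genes of CGAS, 4 were higher and 0 lower. Of these 4, OGFRL1 and KCNQ5 passed the low-count filter only through the libraries labelled knockout. MTO1, 48.1 kb away and known for mitochondrial tRNA modification, rose from 24.2 to 46.3 CPM, and the potassium channel gene KCNQ5 from 0.120 to 20.8 CPM. Of the 6 around TBK1, 2 were higher and 0 lower. Of the 6 around SAMHD1, 2 were higher and 1 lower, and around IRF3 1 was higher and 3 were lower. The genes most like each member in log2 CPM over the 4 libraries were chosen among 12768 protein-coding genes tested by the smallest distance, which fixes that they share its level and its difference. They were FOSL1 and OSCAR for CGAS (Euclidean distances 0.505 and 0.527), HMOX1 for MNDA (0.0963), and JAZF1 and ADGRB1 for SAMHD1 (0.268 and 0.299). For TMEM173 they were QSOX2 and SEC11A, for TBK1 ZFP62 and TMEM62, for IFI16 NOL11 and HSDL1, and for IRF3 WAS and PPP1R11, at distances from 0.0472 to 0.162. With 4 libraries in 2 groups, such likeness describes these libraries.

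Other genes of DNA sensing went both ways, as did all genes tested, of which 33.7% were higher and 32.3% lower. The counts of every list here are to be read beside those shares. Of 17 sensors and cofactors tested, 7 were higher, 6 lower and 4 did not pass the test, with a median log2 fold change of 0.16 beside 0.02 over all genes tested. With DESeq2 6 were higher and 4 lower of 18. The call for G3BP1 was lost with RLE (adjusted p = 0.101, edgeR) and upper-quartile scaling (0.154). Calls were also lost for POLR3A and POLR3F with DESeq2 (adjusted p = 0.0868 and 0.0767) and for HMGB1 with library size only (adjusted p = 0.124, edgeR). POLR3C, a subunit of RNA polymerase III, rose from 38.5 ± 3.96 to 98.4 ± 1.25 CPM, and MRE11, a nuclease of DNA break repair, from 11.5 ± 2.26 to 22.1 ± 0.536 CPM. DHX9, a helicase that binds DNA and RNA, fell from 196.6 ± 22.4 to 83.0 ± 4.54 CPM. BANF1, whose product BAF coats DNA at the nuclear envelope and competes with cGAS for it, fell from 304.9 ± 26.3 to 159.9 ± 4.38 CPM (SD, n = 2 each). ZBP1 and TLR9 had 2 and 4 reads over all libraries and were not tested.

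Regulators of STING and TBK1 were higher for 9 and lower for 14 of 30, with a median of -0.06. TANK and AZI2, adaptors of TBK1, were among the rises, TANK from 8.18 ± 1.75 to 20.9 ± 0.451 CPM and AZI2 from 13.2 ± 3.55 to 26.4 ± 0.842 CPM. TRIM32, a ubiquitin ligase of STING, fell from 44.0 ± 2.51 to 21.9 ± 0.133 CPM, and USP18, a regulator of interferon signalling, from 38.4 ± 0.995 to 17.5 ± 1.01 CPM (SD, n = 2 each). The count of lower genes was 8 without either replicate labelled knockout. Among 11 genes of cGAMP transfer and hydrolysis, 2 were higher and 3 lower, with 6 not past the test. With DESeq2 2 of 12 were lower, and with library size only 4 of 11. LRRC8E, among the lower genes with 30 and 34 reads in wild-type against 11 and 16, lost its call with DESeq2 (adjusted p = 0.209). SLC19A1, a folate carrier that imports cyclic dinucleotides, fell from 232.6 ± 17.5 to 117.1 ± 3.13 CPM. LRRC8A, the obligate subunit of volume-regulated anion channels, fell from 106.5 ± 3.03 to 70.4 ± 7.58 CPM, while its partner LRRC8D rose from 16.4 ± 0.577 to 50.9 ± 1.33 CPM (SD, n = 2 each). The rise of LRRC8B, another partner (8.47 ± 2.23 to 13.8 ± 3.52 CPM, SD, n = 2 each), did not hold without replicate 1 labelled knockout (edgeR adjusted p = 0.156). Without wild-type replicate 1, 5 genes were lower instead of 3, and without replicate 1 labelled knockout 1 was higher instead of 2. ENPP1, the enzyme that degrades cGAMP, did not pass the test (3.90 and 4.51 CPM, adjusted p = 0.473, edgeR).

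**Figure D4:**
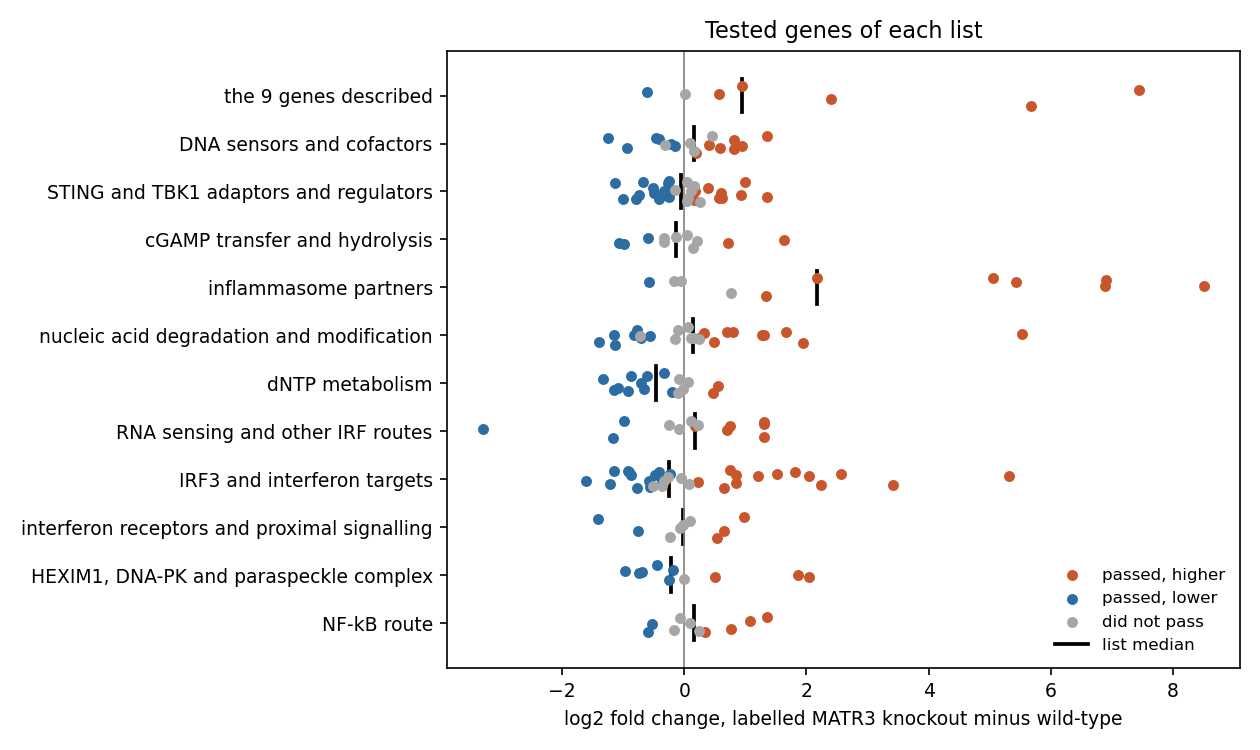
log2 fold change (libraries labelled knockout minus wild-type) of each tested gene, by list, coloured by whether it passed the test and in which direction, with a black line at each list's median. Inflammasome partners reach the highest values, but 6 of their 7 higher genes passed the low-count filter only through the libraries labelled knockout. The lines of most other lists lie near 0.

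Several inflammasome partners were near 0 in wild-type and present in the libraries labelled knockout, although AIM2 itself was at or near 0. Of 11 tested, 7 were higher and 1 lower. Of the 7, PYCARD, CASP1, CASP4, IL18, NLRC4 and CARD16 passed the low-count filter only through the libraries labelled knockout, so a difference was needed for them to be tested. The list's median log2 fold change of 2.18 is the value of CARD16 and rests on that filter. It was 1.29 without wild-type replicate 1 and 1.35 with a filter of 1 CPM in at least 2 libraries, where 5 of 9 were higher. PYCARD, the adaptor ASC that joins pyrin-domain sensors to caspases, had 9 and 0 reads in wild-type against 477 and 495, a ratio of summed reads of 122 (95% exact interval 64.1 to 268, counting error only). CASP1, the inflammatory caspase, had 2 and 2 reads against 94 and 68, and CASP4 had 8 and 7 against 218 and 229. IL18, a cytokine that this caspase matures, had 1 and 0 reads against 196 and 211, a ratio of 460 (95% exact interval 82.1 to 18220). Wild-type libraries were near 0 for all 4 genes, and the groups did not overlap. Without wild-type replicate 1 the log2 fold change of PYCARD went from 6.89 to 11.97 and that of IL18 from 8.51 to 10.71, and without replicate 2 they were 5.96 and 7.71. The pore-forming gene GSDMD fell by 0.58 on the log2 scale. The call for CARD16 was lost without wild-type replicate 1 (adjusted p = 0.140, edgeR) or replicate 1 labelled knockout (adjusted p = 0.102, edgeR), and with DESeq2 (adjusted p = 0.112).

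Genes that degrade or modify nucleic acids were higher for 10 and lower for 7 of 25, with a median of 0.14. With DESeq2 8 were higher and 5 lower. Among the higher genes, PLD4 (8 and 1 reads in wild-type) passed the low-count filter only through the libraries labelled knockout. Its call was lost with DESeq2 (adjusted p = 0.142). The groups overlapped for DNASE1L1, whose call was lost with DESeq2 (adjusted p = 0.239) and with library size only (adjusted p = 0.125, edgeR). RNASE2, a ribonuclease of eosinophil and neutrophil granules, rose from 1.02 ± 0.105 to 47.7 ± 0.372 CPM, and RNASET2, a lysosomal ribonuclease, from 19.4 ± 2.38 to 61.8 ± 7.88 CPM. NT5C3A, a pyrimidine nucleotidase, rose from 11.4 ± 2.12 to 27.4 ± 2.48 CPM (SD, n = 2 each). IFIH1, the RNA sensor MDA5, had 43 and 95 reads in wild-type against 129 and 176; its log2 fold change was 1.31, or 2.05 without wild-type replicate 2. TREX2, the closest relative of TREX1, had 43 and 58 reads against 25 and 9, and its fall did not hold without replicate 2 labelled knockout (adjusted p = 0.111, edgeR) or wild-type replicate 2 (adjusted p = 0.0637, edgeR), and with DESeq2 (0.0547). Without replicate 1 labelled knockout its log2 fold change went from -1.39 to -2.31. Subunits of RNase H2, which removes RNA from DNA hybrids, did not share a direction, with log2 fold changes of -0.83 for RNASEH2A, 0.25 for RNASEH2B and -0.57 for RNASEH2C. The call for RNASEH2A was lost without wild-type replicate 1 (adjusted p = 0.331, edgeR) or replicate 2 labelled knockout (adjusted p = 0.141, edgeR), and with DESeq2 (0.122). That for RNASEH2B was lost without replicate 1 or 2 labelled knockout (adjusted p = 0.119 and 0.0729, edgeR). TREX2 and the RNase H2 genes were singled out after their values were seen.

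In the libraries where SAMHD1 was higher, genes of deoxynucleotide metabolism, which make, carry or clear nucleotides, were mostly lower. Of 16 tested, 10 were lower, 2 higher and 4 did not pass the test, with a median of -0.47. Among the lower genes, the call for PNP was lost with upper-quartile scaling (adjusted p = 0.0521, edgeR) and without a filter (0.0755). RRM1 and RRM2, the subunits of ribonucleotide reductase, fell from 161.5 ± 8.06 to 85.2 ± 4.78 CPM and from 163.8 ± 2.70 to 77.5 ± 0.749 CPM (SD, n = 2 each). SLC29A1, a nucleoside transporter, fell from 273.6 ± 16.6 to 123.5 ± 2.70 CPM, and NUDT1, which clears oxidised nucleotides, from 89.5 ± 3.94 to 35.5 ± 1.19 CPM (SD, n = 2 each). The higher genes were NT5M and RRM2B, and the call for RRM2B was lost without wild-type replicate 1 (adjusted p = 0.0529, edgeR) or replicate 1 labelled knockout (adjusted p = 0.115, edgeR), and with DESeq2 (0.0857).

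Targets of IRF3 and interferon were higher for 13 and lower for 13 of 32, with a median of -0.26. With DESeq2 10 were higher and 11 lower of 33, and the median ranged from -0.30 to -0.18 over the settings tried. The interferon beta gene IFNB1 had 0 reads in all libraries, which allows up to 0.0477 CPM over the 4 (3 counts, counting error only), and CXCL10 had 0 and 0 against 1 and 2. CCL5, a chemokine gene, rose from 2.68 ± 0.763 to 107.3 ± 2.62 CPM. IFIT2, of the family that binds viral RNA, rose from 1.09 ± 0.239 to 6.41 ± 0.772 CPM, OASL from 1.63 ± 0.443 to 6.68 ± 0.295 CPM and IFI35 from 1.77 ± 0.155 to 8.35 ± 2.37 CPM (SD, n = 2 each). IFIT1 and IFIT3 also rose, by 1.51 and 3.42 on the log2 scale, and IFIT3, with 6 and 6 reads in wild-type, passed the low-count filter only through the other group. The same holds for TRIM22 (7 and 14 reads in wild-type) and IFI44 (9 and 9), which are among the 13 higher. IFIT5 did not pass the test (-0.34, adjusted p = 0.164, edgeR). The oligoadenylate synthetase genes OAS1, OAS2 and OAS3 went the other way, unlike OASL of the same family. OAS1 fell from 13.4 ± 0.213 to 5.73 ± 0.768 CPM, OAS2 from 34.7 ± 5.26 to 11.3 ± 0.0980 CPM and OAS3 from 80.4 ± 1.21 to 42.2 ± 1.09 CPM. ISG15, a ubiquitin-like modifier, fell from 189.1 ± 11.4 to 101.1 ± 8.08 CPM (SD, n = 2 each). These calls for IFIT1, IFIT3, OAS1, OAS3 and ISG15 passed in the same direction under every scaling tried. As these genes were named after their values were seen, holding under rescaling is no independent check of them. For IFIT3 the direction was fixed by the low-count filter.

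MATR3 is known as a component of a complex of HEXIM1, DNA-PK and paraspeckle proteins that takes part in the response to foreign DNA. Among the 10 tested rows of that complex, 3 were higher and 6 lower, with a median of -0.22. HEXIM1 itself fell from 46.2 ± 4.38 to 23.5 ± 1.92 CPM, the DNA-end binding subunit XRCC6 from 1045 ± 54.4 to 626 ± 1.59 CPM and the paraspeckle protein gene RBM14 from 213.9 ± 18.8 to 132.6 ± 5.51 CPM. NEAT1, the RNA that scaffolds paraspeckles, rose from 9.90 ± 1.01 to 35.9 ± 7.18 CPM, and PRKDC, the DNA-PK catalytic subunit, by 0.51 on the log2 scale (SD, n = 2 each). The third higher row was a MATR3 row, whose reads are uncertain as described above. The call for XRCC5 was lost without replicate 1 or 2 labelled knockout (adjusted p = 0.0585 and 0.187, edgeR), and so was that for NONO (0.270 and 0.281), which was also lost with RLE (0.0537) and upper-quartile scaling (0.0728).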

How the data were processed

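RNA sequencing of 4 Jurkat libraries was deposited as 1 table of raw read counts per gene, with gene lengths and coordinates, which the authors made without normalization (per the file headers and values). Per the submitters' processing notes, the tools were featureCounts 1.5.0-p3, HISAT2 2.0.5 and CASAVA 1.8. What each did, the build, the strandedness and the handling of reads shared by genes were not given in the sources used here. Identifiers are human throughout, although the organism is labelled as mouse.

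Counts were fitted over the whole table with edgeR 4.0.16 (R 4.3.3): TMM scaling, default filter (10 counts, 15 in total), two-sided quasi-likelihood test between the groups, Benjamini-Hochberg adjustment. The SE is the log2 fold change over the root of the F statistic. TPM used the deposited gene lengths. Alternatives were RLE, upper-quartile and no composition scaling, DESeq2 1.42.0, limma 3.58.1 voom, 2 other filters, removal of mitochondrial genes, protein-coding genes only, a threshold of 0.01, a replicate block and leaving out each library.

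On simulated counts for this comparison (15294 genes, 200 changed), 86% of 2-fold and 100% of 4-fold changes were called, and 12 of 198 calls were false. The changed genes were drawn only from those above a minimum expected count in wild-type. In the data 66.0% of genes were called. The simulated rates therefore do not describe a table with so many calls, or genes near 0 in wild-type such as CGAS and MNDA. Within each group the replicates differed by more than sampling noise (chi-square of 5.83 and 2.21 per gene). Totals of 15008554 to 17477643 reads per library leave genes with few reads imprecise.

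The 9 members and the 12 pathway and 7 marker lists were chosen with earlier results of these data known. Of 228 pathway symbols, 223 were in the table. Up to 4 genes per list were named, those with the largest absolute change among genes that passed the test, averaged at least 5 CPM in a group and had no overlap. Other genes named were chosen after their values were seen.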

Additional observations from a re-analysis of the deposited data

How the results depend on the processing

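With TMM scaling, 10088 genes were called, and the count stayed within 1.5 times of this under all 15 alternatives. The same 6 members were called in the same direction in each of them, including the replicate block (6 members, 10072 genes). The labels do not tie the replicate numbers to a shared culture or day, and deviations of replicate 1 from the group means did not correlate across genes (r = 0.0237, 10827 genes). Over the other genes of the pathway lists, the block ended only the call of IFI44 (adjusted p = 0.0554, edgeR). The log2 fold change of IRF3, which never passed the test, was -0.0276 with library size only and -0.0250 without wild-type replicate 2. Leaving out 1 library gave it -0.0250 to 0.0692. The other members ranged as follows: CGAS 5.23 to 6.38, MNDA 6.56 to 9.69, SAMHD1 2.24 to 2.56, TBK1 0.79 to 1.13, TMEM173 0.52 to 0.62 and IFI16 -0.76 to -0.42, with the extremes in each case without 1 of the wild-type libraries. The share of genes called was less steady than the count. It was 66.0% of 15294 genes tested in the main fit, 43.6% of 18797 with DESeq2 and 33.7% of 28006 without a filter. Testing without a filter moved the median log2 fold change of all genes by 0.13, and no scaling moved it by more than 0.1. Where leaving out a library left a single one in a group, it was assumed to vary like the others. Depth limits AIM2, MNDA and CGAS in wild-type. For TREX1, the part of its overlap with ATRIP in the 0 reads was not tested.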

Other observations

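Routes that reach the same factors from RNA or cytokine signals also went both ways, as did all genes tested (33.7% higher and 32.3% lower). Of 13 genes of RNA sensing and other interferon regulatory factors tested, 6 were higher and 3 lower, with a median log2 fold change of 0.17. One of the higher genes, IFIH1, is also counted among the genes that degrade or modify nucleic acids. With DESeq2 4 were higher and 3 lower of 14, and the calls for MAVS and IRF9 were lost (adjusted p = 0.0809 and 0.0609). IRF8, a factor of myeloid and B cells, fell from 7.38 ± 1.02 to 0.745 ± 0.282 CPM, and MYD88, the adaptor of most Toll-like receptors, from 132.7 ± 3.99 to 59.0 ± 0.326 CPM. IRF5, a factor downstream of Toll-like receptors, rose from 2.21 ± 0.454 to 5.46 ± 0.0932 CPM (SD, n = 2 each). The fall of IRF8 is the opposite direction to all 15 tested myeloid markers, and it was singled out after its values were seen. Myeloid markers near 0 in wild-type could be tested only if they were higher, as described above.

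Receptors and kinases of interferon signalling were higher for 3 and lower for 2 of 9, a balance that did not hold without wild-type replicate 1 (2 higher, 3 lower). Without replicate 1 labelled knockout 2 were higher and 2 lower, and without replicate 2 labelled knockout 2 were higher and 1 lower. IFNGR1 and IFNGR2, the chains of the interferon gamma receptor, rose from 12.8 ± 0.348 to 25.2 ± 0.113 CPM and from 50.8 ± 4.79 to 73.9 ± 2.72 CPM (SD, n = 2 each). IFNAR2, a chain of the type I receptor, fell from 5.48 ± 0.203 to 3.26 ± 0.123 CPM, a call lost without replicate 2 labelled knockout (adjusted p = 0.0743, edgeR) and with DESeq2 (0.103). IFNAR1 did not pass the test (35.1 and 37.4 CPM, adjusted p = 0.486, edgeR). The rise of JAK2 was lost without any 1 of 3 libraries (adjusted p = 0.205 without wild-type replicate 1, 0.0589 and 0.0983 without replicate 1 or 2 labelled knockout, edgeR), with library size only (0.0568) and with DESeq2 (0.160). Of 10 genes of the NF-kB route, 4 were higher and 2 lower, with RELB going from 13.2 ± 0.371 to 33.6 ± 0.230 CPM and the inhibitor NFKBIA from 24.6 ± 0.644 to 42.0 ± 1.23 CPM (SD, n = 2 each). Without replicate 2 labelled knockout 1 of these was lower instead of 2.

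Markers of other cell types had low sums or rested on a few genes. B cell markers summed to 16.4 and 14.2 CPM in wild-type against 10.6 and 9.51 CPM. Of the 3 tested, CD79A fell from 14.7 to 5.70 CPM, while PAX5 (0 and 0 reads against 53 and 32) and BLNK (0 and 2 against 11 and 11) were higher and passed the low-count filter only through the libraries labelled knockout. The call for BLNK was lost with DESeq2 (adjusted p = 0.0505). Natural killer cell markers summed to 2.87 and 1.76 against 4.98 and 5.19 CPM (1 higher and 1 lower of 2 tested). The lower call, that of NCAM1, was lost with DESeq2 (adjusted p = 0.0624). Erythroid and megakaryocyte markers summed to 1.84 and 2.01 against 2.52 and 2.83 CPM, and fibroblast markers to 11.4 and 10.9 against 11.3 and 12.2 CPM. Epithelial markers summed to 13.9 and 11.5 CPM against 123.5 and 125.8 CPM, mostly the keratin genes KRT18 and KRT8, with EPCAM and KRT19 at 0 in both groups.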
